A study of Homo sapiens with 4 samples.

Results

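The 43 genes described here encode the enzymes and transporters of glycolysis and the pentose phosphate pathway, their regulators, and genes known for their response to low oxygen. They were chosen by gene symbol from the 60662 genes of the table deposited for NB4 cells, in which each of the 43 had 1 row. NB4 is a human acute promyelocytic leukemia cell line. It was transduced with a control vector in 2 libraries and with a vector carrying JMJD3, a demethylase of H3K27me3 encoded by KDM6B, in 2 others. The study's methods describe lentiviral vectors and sorting of transduced cells by a fluorescent protein. Both groups thus carry a vector, and the design asks which transcripts change when JMJD3 is raised. The libraries held 39078443 and 40768225 counts in vector libraries 1 and 2, and 35176388 and 34704909 counts in JMJD3 libraries 1 and 2. Nothing in the labels says that the libraries came from separate cultures. Each p-value sets the difference between groups against a spread within groups that may thus be only technical.

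Glycolysis splits glucose into pyruvate, and most of its steps can be carried out by several isozymes that differ between tissues. Pyruvate then becomes lactate, which leaves the cell, or enters the mitochondrion, while the pentose phosphate pathway draws on the first product of the chain to make NADPH and ribose. Many of these genes are known targets of hypoxia-inducible factor (HIF), whose alpha subunit is marked for degradation by oxygen-dependent prolyl hydroxylases, and proliferating leukemia cells are known for a high rate of glycolysis.

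The transduced gene was checked first. KDM6B (ENSG00000132510) had 15.8 and 13.7 CPM (counts scaled to library size with the TMM factors) in vector libraries 1 and 2, and 37.9 and 44.1 CPM in JMJD3 libraries 1 and 2. Both JMJD3 libraries lay above both vector libraries, by 1.48 ± 0.13 on the log2 scale (SE, n = 2 per group, adjusted p = 0.00114 by edgeR's quasi-likelihood test over 15246 genes). Reads of the JMJD3 transcript from the vector would count here as well. A gene is called higher or lower here at an adjusted p under 0.05. Of 7 markers of promyelocytes, MPO, the granule peroxidase, was the most abundant. It had 13880, 14110, 9379 and 9421 CPM in vector 1, vector 2, JMJD3 1 and JMJD3 2. Summed over the 7 markers, the level was 16610, 17400, 10500 and 10460 CPM in the same order, most of it MPO. Of these 7, the 4 granule protein genes MPO, PRTN3, AZU1 and CTSG were lower, CD33 was higher, LYZ did not pass and ELANE was too low to test. The 4 monocyte and macrophage markers summed to 5.26, 4.09, 13.3 and 13.2 CPM, nearly all of it CSF1R, with MRC1 and CD163 at no more than 1 count. The 4 T cell markers summed to 3.75, 5.27, 11.1 and 11.1 CPM, led by CD2, while CD3E and CD3G had at most 4 counts. The 4 B cell markers summed to 10.39, 11.63, 17.55 and 15.93 CPM, of which CD79A was higher, and the 4 markers of epithelium or packaging lines to 6.637, 7.494, 3.429 and 2.808 CPM, of which EPCAM was lower. All 5 erythroid markers were at 0, which allows up to 0.0786 to 0.0810 CPM (3 counts, covering counting error only). The part of these shifts in the results below was not tested, and in bulk RNA fewer cells of a type and less RNA per cell cannot be told apart.

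Of the 43 genes, 38 had enough counts to be tested. Several rarer isozymes, the regulators PFKFB4 and PDK1 and 3 oxygen-response genes were higher in the JMJD3 libraries. GPI, PKM, LDHB and several others were lower, whereas the abundant GAPDH, ENO1, LDHA and PGK1 did not pass. Among the 38, 9 were higher, or 23.7%, against 21.6% of all tested genes, and 10 were lower, or 26.3%, against 19.1% of all tested genes. By these shares of the main fit the list as a whole stood near the background. At 1.5-fold or more, 8 were higher (21.1%, against 15.1% of all tested genes) and 2 were lower (5.26%, against 7.9%). The median log2 fold change was -0.15 over the 38 genes and 0.04 over all tested genes. In 34 of the 38 genes (89.5%) the groups did not overlap, which was so for 74.4% of all tested genes.

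The number of lower genes depended on single libraries. It was 20 without vector library 1 (52.6%, against 26.6% of all genes in that fit), 11 without vector library 2 (28.9%, against 21.7%), 6 without JMJD3 library 1 (15.8%, against 8.64%) and 4 without JMJD3 library 2 (10.5%, against 7.03%). The number of higher genes was 12 (31.6%, against 26.8%), 10 (26.3%, against 21.5%), 8 (21.1%, against 12.8%) and 9 (23.7%, against 12%) in the same order. Vector library 1 was run on lane 20 by its label and the other libraries on lane 17, so that the fit without vector library 1, with 12 higher and 20 lower, is also the comparison within a lane. Of the 19 genes that did not pass, 13 passed in that fit. ENO1, GAPDH, PGK1, PFKP, RPIA, PGD, TKT, PGLS, PDK3 and ADM were lower there and HK2, RPE and VEGFA higher. Scaling mattered as well. With library totals in place of TMM factors the median of all tested genes moved by 0.17 on the log2 scale, and 13 of the 38 were then higher (34.2%, against 31.2% of all tested genes) and 6 lower (15.8%, against 10.5%). Some calls held with every library left out in turn and under all 11 other fits tried, with no limit on fold change. These were SLC2A3, HK1, ALDOC, ENO2, PFKFB4, PDK1, BNIP3 and BNIP3L, all higher, and SLC2A1, GPI, PKM and LDHB, all lower. Of these, GPI and LDHB changed by less than 1.5-fold.

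**Figure D1:**
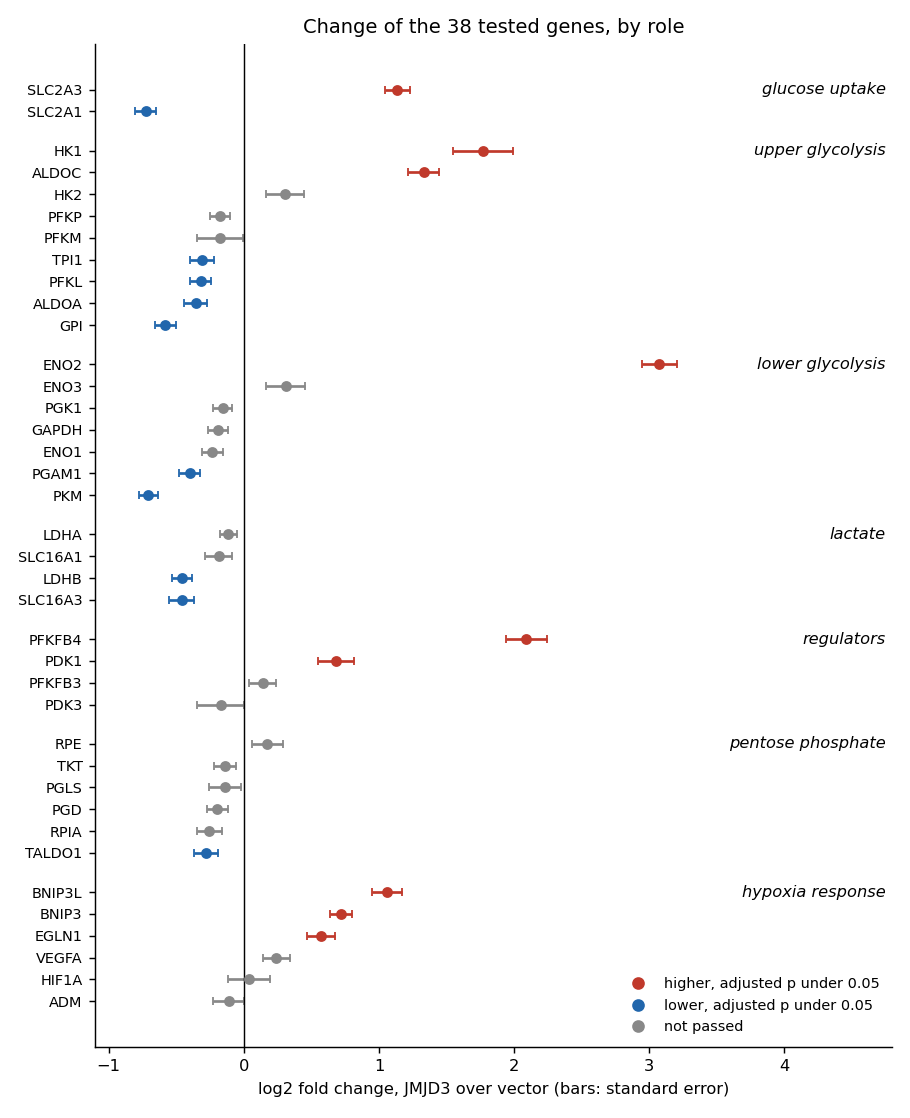
Log2 fold change of the 38 tested genes (x axis, JMJD3 over vector) with its standard error, grouped by role. ENO2 stands at 3.07 and PFKFB4 at 2.09, while no lower gene goes beyond -0.73.

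Glucose enters the cell through facilitative transporters, and the 2 listed here moved in opposite directions. SLC2A1, the widespread transporter GLUT1, had 150.5 and 146.9 CPM in the vector libraries and 88.4 and 91.2 CPM in the JMJD3 libraries. SLC2A3, the high-affinity transporter GLUT3, had 27.5 and 26.5 CPM in the vector libraries and 59.8 and 58.9 CPM in the JMJD3 libraries. For both genes the libraries of a group lay close together and the groups were well apart. The log2 fold change was -0.73 ± 0.08 for SLC2A1 (adjusted p = 0.00183, edgeR) and 1.14 ± 0.09 for SLC2A3 (adjusted p = 0.00105, edgeR). SLC2A3 has a near-identical neighbour, SLC2A14, which held few counts, and with its counts and those of genes named as its pseudogenes added the log2 fold change of SLC2A3 was 1.12 (adjusted p = 0.00113, edgeR). Per length, SLC2A1 remained the more abundant transporter in every library. Its FPKM, a count scaled for gene length and depth, was 116.8, 111.0, 67.9 and 74.8 in vector 1, vector 2, JMJD3 1 and JMJD3 2. That of SLC2A3 was 8.26, 7.34, 18.4 and 17.5. The share of SLC2A3 in the sum of both went from 6.61% and 6.21% to 21.3% and 19.0%.

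In the upper part of glycolysis 2 of the 9 tested genes were higher (22.2%, against 21.6% of all tested genes) and 4 lower (44.4%, against 19.1%). Hexokinases trap glucose as its 6-phosphate. HK2, by far the most abundant of them per length, had 184.0, 135.9, 192.3 and 202.3 CPM in vector 1, vector 2, JMJD3 1 and JMJD3 2 and did not pass the test (log2 fold change 0.30 ± 0.14, adjusted p = 0.127, edgeR). The vector libraries differed from each other by more than vector library 1 differed from either JMJD3 library. Without vector library 1, HK2 was higher by 0.50 on the log2 scale (adjusted p = 0.00377, edgeR), and with library totals by 0.47 (adjusted p = 0.0440, edgeR). HK1, the hexokinase of brain and red cells, had 0.809 and 1.10 CPM in the vector libraries and 3.02 and 3.51 CPM in the JMJD3 libraries. It was low everywhere, yet the groups were separate, with a log2 fold change of 1.77 ± 0.22 (adjusted p = 0.00250, edgeR). HK3 had 5 to 7 counts in every library and was not tested.

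GPI, which turns glucose 6-phosphate into fructose 6-phosphate, fell by 0.58 ± 0.08 on the log2 scale (adjusted p = 0.00306, edgeR). Of the phosphofructokinases, which commit sugar to glycolysis, the liver-type PFKL was the most abundant per length. It had 297.4 and 321.0 CPM in the vector libraries and 244.3 and 252.1 CPM in the JMJD3 libraries. The groups did not overlap, but the step was small (log2 fold change -0.32 ± 0.08, adjusted p = 0.0189, edgeR), and it did not pass with library totals (adjusted p = 0.154, edgeR), with a replicate block or without either JMJD3 library. PFKP and PFKM did not pass, though PFKP was lower without vector library 1, and PFKM shares exon bases with SENP1 on the other strand, a gene with many more counts.

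Aldolases cleave fructose 1,6-bisphosphate. ALDOA, the main aldolase here, had 1554 and 1783 CPM in the vector libraries and 1319 and 1288 CPM in the JMJD3 libraries. ALDOC, known as the aldolase of brain, had 10.2 and 11.3 CPM in the vector libraries and 28.6 and 25.7 CPM in the JMJD3 libraries. ALDOA was thus a little lower and ALDOC clearly higher in both JMJD3 libraries. ALDOC rose by 1.33 ± 0.12 on the log2 scale (adjusted p = 0.00115, edgeR), while the log2 fold change of ALDOA was -0.36 ± 0.08 (adjusted p = 0.0173, edgeR) and did not pass with library totals (adjusted p = 0.101, edgeR), with limma, with no filter on low counts or without either JMJD3 library. TPI1, which interconverts the 3-carbon products, was lower by a similar step (-0.31 ± 0.09, adjusted p = 0.0285, edgeR) and did not pass with library totals (adjusted p = 0.198, edgeR), with upper quartile scaling, limma or no filter, or without either JMJD3 library.

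In the lower part of the chain, ENO2 was higher and PKM and PGAM1 lower, while 4 of the 7 genes did not pass. That is 14.3% higher, against 21.6% of all tested genes, and 28.6% lower, against 19.1%. ENO2 is the enolase known from neurons. It had 2.02 and 2.17 CPM in the vector libraries and 18.0 and 17.4 CPM in the JMJD3 libraries. No other tested gene of the 38 rose as much, 8.42-fold, with a log2 fold change of 3.07 ± 0.13 (adjusted p = 0.000207, edgeR). ENO1, the common enolase, had 2952 and 3327 CPM in the vector libraries and 2745 and 2602 CPM in the JMJD3 libraries. The vector values lay above the JMJD3 values, but their difference did not pass (log2 fold change -0.23 ± 0.08, adjusted p = 0.0586, edgeR). Without vector library 1 ENO1 was lower at -0.36 (adjusted p = 0.0101, edgeR), and with library totals it was at -0.06. ENO3, the muscle enolase, did not pass either, though it was higher without vector library 2 and with library totals, and its exons touch those of the far more abundant PFN1.

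PKM, the pyruvate kinase that makes ATP at the last step, had 1899 and 2025 CPM in the vector libraries and 1226 and 1179 CPM in the JMJD3 libraries. Both JMJD3 libraries were well below both vector libraries, with a log2 fold change of -0.71 ± 0.07 (adjusted p = 0.00155, edgeR). PGAM1, the mutase upstream of enolase, fell by 0.40 ± 0.08 on the log2 scale (adjusted p = 0.00933, edgeR), though without JMJD3 library 2 it did not pass. GAPDH is the most abundant of the 43 genes and served as the internal control for qRT-PCR in the study. It had 4214 and 4602 CPM in the vector libraries and 3951 and 3774 CPM in the JMJD3 libraries. These groups did not overlap, and the difference did not pass (log2 fold change -0.19 ± 0.07, adjusted p = 0.0760, edgeR). Without vector library 1 the log2 fold change of GAPDH was -0.30 (adjusted p = 0.0176, edgeR), and with library totals it was -0.02. PGK1 did not pass. It was lower at -0.23 without vector library 1 (adjusted p = 0.0454, edgeR) and turned positive with library totals, at 0.01.

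Lactate dehydrogenase is a tetramer of the products of LDHA and LDHB. LDHB had 3041 and 3256 CPM in the vector libraries and 2384 and 2212 CPM in the JMJD3 libraries. LDHA had 1402 and 1407 CPM in the vector libraries and 1304 and 1291 CPM in the JMJD3 libraries. LDHB was thus clearly lower with JMJD3, and LDHA lay close to its vector level. LDHB fell by 0.45 ± 0.07 on the log2 scale (adjusted p = 0.00530, edgeR), whereas LDHA did not pass (log2 fold change -0.11 ± 0.06, adjusted p = 0.196, edgeR) and changed sign on the FPKM scale and with library totals. The ratio of LDHA to LDHB in FPKM was 0.441 and 0.369 in the vector libraries and 0.574 and 0.621 in the JMJD3 libraries, without overlap. SLC16A3, the exporter MCT4, had 363.4 and 422.8 CPM in the vector libraries and 287.8 and 283.8 CPM in the JMJD3 libraries. It was lower at -0.46 ± 0.09 on the log2 scale (adjusted p = 0.00977, edgeR), with separate groups. This value carries an uncertainty, since its exons overlap CSNK1D on the other strand, and it did not pass on the FPKM scale or without JMJD3 library 2. SLC16A1, the transporter MCT1, did not pass, though it was lower without vector library 2.

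Of the 4 tested regulators PFKFB4 and PDK1 were higher and PFKFB3 and PDK3 did not pass, beside 21.6% higher among all tested genes. The PFKFB enzymes set the level of fructose 2,6-bisphosphate, the strongest known activator of phosphofructokinase. PFKFB4 had 4.07 and 5.32 CPM in the vector libraries and 20.6 and 19.4 CPM in the JMJD3 libraries. PFKFB3, the more abundant of them per length, had 41.9 and 38.2 CPM in the vector libraries and 43.7 and 44.6 CPM in the JMJD3 libraries. The rise thus lay in PFKFB4, where the groups were far apart, and the values of PFKFB3 were close together. The log2 fold change was 2.09 ± 0.15 for PFKFB4 (adjusted p = 0.000734, edgeR) and 0.14 ± 0.10 for PFKFB3 (adjusted p = 0.296, edgeR, or 0.0486 with library totals). PFKFB4 shares 298 exon bases with UCN2 on the same strand. UCN2 had 1.32, 1.94, 4.97 and 4.86 CPM in vector 1, vector 2, JMJD3 1 and JMJD3 2, so that reads of this stretch may count for either gene.

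PDK1 encodes a kinase that inactivates pyruvate dehydrogenase and so holds back the conversion of pyruvate to acetyl-CoA. It had 31.2 and 24.7 CPM in the vector libraries and 44.7 and 44.8 CPM in the JMJD3 libraries. The JMJD3 libraries were alike and above both vector libraries, which differed from each other. The log2 fold change was 0.68 ± 0.13 (adjusted p = 0.00866, edgeR). PDK3 did not pass, though without vector library 1 it was lower (adjusted p = 0.0407, edgeR), and PDK2, PDK4 and PFKFB2 had at most 1 count in any library.

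PGD and PGLS of the oxidative branch and TKT, RPIA and RPE of the other branch did not pass, though all 5 did without vector library 1, with RPE higher and the others lower. RPIA also passed without vector library 2. The log2 fold changes of the 5 in the main fit ran from -0.25 for RPIA to 0.17 for RPE, the latter with exons that overlap KANSL1L. TALDO1, the transaldolase, was lower by a small step (-0.28 ± 0.09, adjusted p = 0.0421, edgeR) and did not pass with library totals (adjusted p = 0.311, edgeR), with upper quartile scaling, limma, no filter or a replicate block. Of the 4 fits that leave out a library, TALDO1 passed only in that without vector library 1. In sum, the 6 genes held 1509, 1681, 1431 and 1402 CPM in vector 1, vector 2, JMJD3 1 and JMJD3 2. As a share of all counts, with no TMM factor, they made up 0.143%, 0.157%, 0.151% and 0.15% in the same order. On that scale the groups overlapped.

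Of the 6 tested genes of the oxygen response, 3 were higher and none lower, against 21.6% and 19.1% of all tested genes. BNIP3 and BNIP3L encode receptors that mark mitochondria for removal by autophagy. BNIP3 had 76.8 and 78.8 CPM in the vector libraries and 131.8 and 124.9 CPM in the JMJD3 libraries. BNIP3L had 15.9 and 14.2 CPM in the vector libraries and 29.9 and 32.9 CPM in the JMJD3 libraries. Both genes were higher in each JMJD3 library than in either vector library. Their log2 fold changes were 0.72 ± 0.08 for BNIP3 (adjusted p = 0.00205, edgeR) and 1.06 ± 0.11 for BNIP3L (adjusted p = 0.00182, edgeR). EGLN1, the main HIF prolyl hydroxylase and itself a known HIF target, had 21.8 and 19.7 CPM in the vector libraries and 31.6 and 30.1 CPM in the JMJD3 libraries. It rose by 0.57 ± 0.11 on the log2 scale (adjusted p = 0.00778, edgeR), with separate groups, but did not pass without JMJD3 library 1. On the FPKM scale EGLN1 went from 3.31 and 3.48 to 7.43 and 8.08, a larger step than in counts.

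HIF1A, which encodes the alpha subunit, had 90.2, 65.2, 76.2 and 83.6 CPM in vector 1, vector 2, JMJD3 1 and JMJD3 2. Its JMJD3 values lay between the vector values (log2 fold change 0.04 ± 0.16, adjusted p = 0.850, edgeR). HIF1A is controlled largely through the stability of its protein, which was not measured here. VEGFA, the angiogenic growth factor, did not pass (log2 fold change 0.24 ± 0.10, adjusted p = 0.0969, edgeR), although it was higher at 0.41 with library totals (adjusted p = 0.0214, edgeR) and at 0.29 without vector library 1 (adjusted p = 0.0163, edgeR). ADM, the vasodilator peptide gene, did not pass at -0.11 ± 0.11, though it was lower without vector library 1 (adjusted p = 0.0348, edgeR). EGLN3 was at 0 in every library.

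**Figure D2:**
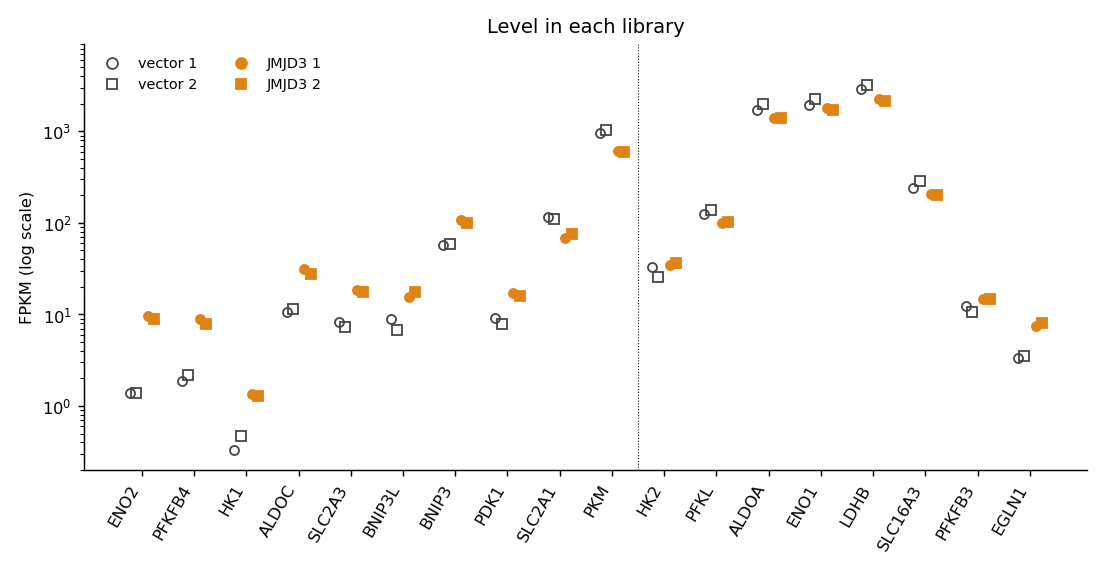
FPKM (log scale) of 18 genes in each of the 4 libraries, with the genes changed by at least 1.5-fold left of the dotted line and the most abundant members of other isozyme families right of it. The JMJD3 points of ENO2 (9.55 and 8.86) lie above its vector points (1.40 and 1.39), while those of ENO1 (1791 and 1705) lie below its vector points (1941 and 2244).

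HIF binds DNA at a short core, written ACGTG or GCGTG. The 250 bases before the transcription start are shown for the 6 genes that changed by at least 1.5-fold and have 1 start in the RefSeq table, 4 of them higher and 2 lower. All are from GRCh38.p14 and are given 5′ to 3′ on the strand of the gene, with matches to either core on either strand in capitals. The table held 38 of the 43 genes, with 68 starts.
ENO2, higher, chr12:6914330-6914579, plus strand: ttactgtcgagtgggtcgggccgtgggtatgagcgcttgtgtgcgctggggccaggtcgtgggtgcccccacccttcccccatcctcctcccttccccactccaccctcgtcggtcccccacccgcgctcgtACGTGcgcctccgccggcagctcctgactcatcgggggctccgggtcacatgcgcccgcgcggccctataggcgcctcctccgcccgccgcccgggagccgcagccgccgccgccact
PFKFB4, higher, chr3:48556804-48557053, minus strand: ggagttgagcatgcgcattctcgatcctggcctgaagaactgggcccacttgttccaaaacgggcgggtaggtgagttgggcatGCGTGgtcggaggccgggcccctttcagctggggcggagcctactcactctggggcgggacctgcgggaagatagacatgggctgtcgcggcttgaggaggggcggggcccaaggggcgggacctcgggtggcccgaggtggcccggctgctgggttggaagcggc
ALDOC, higher, chr17:28576896-28577145, minus strand: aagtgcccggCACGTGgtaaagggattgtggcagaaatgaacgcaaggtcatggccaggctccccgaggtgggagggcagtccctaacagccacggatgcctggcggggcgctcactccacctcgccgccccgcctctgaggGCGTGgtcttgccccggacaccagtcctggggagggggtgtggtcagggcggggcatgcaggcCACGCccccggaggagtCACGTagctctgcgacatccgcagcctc
BNIP3, higher, chr10:131981924-131982173, minus strand: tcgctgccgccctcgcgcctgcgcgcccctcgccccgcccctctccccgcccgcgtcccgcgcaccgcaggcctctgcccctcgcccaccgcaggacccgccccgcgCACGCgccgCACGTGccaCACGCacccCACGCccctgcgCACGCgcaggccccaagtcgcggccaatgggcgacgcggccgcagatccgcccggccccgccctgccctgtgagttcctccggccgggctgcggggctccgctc
SLC2A1, lower, chr1:42958869-42959118, minus strand: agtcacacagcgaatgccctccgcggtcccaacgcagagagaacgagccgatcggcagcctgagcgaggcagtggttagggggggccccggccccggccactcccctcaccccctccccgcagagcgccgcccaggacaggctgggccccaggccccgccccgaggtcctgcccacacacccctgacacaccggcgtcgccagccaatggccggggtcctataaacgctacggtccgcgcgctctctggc
PKM, lower, chr15:72231191-72231440, minus strand: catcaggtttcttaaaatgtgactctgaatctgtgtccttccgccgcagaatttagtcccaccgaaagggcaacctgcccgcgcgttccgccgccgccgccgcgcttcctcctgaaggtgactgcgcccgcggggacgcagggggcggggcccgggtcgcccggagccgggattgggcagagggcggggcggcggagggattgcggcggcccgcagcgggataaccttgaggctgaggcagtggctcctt

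The 4 higher genes shown held between 1 and 6 matches, and the windows of SLC2A1 and PKM held none. Of the lower genes with 1 start that changed by less than 1.5-fold, GPI and PFKL held 1 match each. PGAM1, TALDO1 and LDHB held none. A match describes letters only, and the cores are common. Of all 35116 windows of this length, 18.5% held ACGTG, 32.2% held GCGTG and 43.2% held either. The core ACGTG also lies inside CACGTG, the E-box read by MYC and other factors, which counts once on each strand and was found in 6.34% of all windows. Among the 43 genes, all 7 higher genes in the table had a match in at least 1 of their windows, as did 5 of the 10 lower genes, 14 of the 17 that did not pass (82.4%) and 47.4% of all genes in the table. Counted by window, the shares were 50% (7 of 14), 52.9% (9 of 17) and 58.1% (18 of 31). HK1 alone gives 7 of the 14 windows of the higher genes, with a match in 1. PFKM gives 7 of the 31 windows of the genes that did not pass, also with a match in 1. The 2 ways of counting thus differ. LDHA and HK2, which did not pass, had starts with 5 and 6 matches.

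The direction of change went with the level of the gene. Of the 16 tested genes with a mean of at least 100 FPKM over the 4 libraries, a limit chosen after the values were seen, 9 were lower and none higher. With library totals in place of TMM factors, 5 of these 16 were lower and none higher. Below 100 FPKM, 9 of 22 were higher (40.9%) and 1 lower, SLC2A1, just under the limit. Among all tested genes the direction also went with the level. Of the 1277 with at least 100 FPKM, 53.7% were lower and 5.56% higher, close to the 56.2% and 0 of the glycolytic and related genes, with medians of -0.31 and -0.30 on the log2 scale. Below 100 FPKM, 23.1% of all tested genes were higher and 15.9% lower, against 40.9% and 4.55% of the listed genes. This difference was not tested. With library totals 30.9% of all tested genes with at least 100 FPKM were lower, close to the 31.2% of the listed genes. There 10.3% of all tested genes were higher and none of the listed genes. Below 100 FPKM, 59.1% of the listed genes were then higher, against 33.2% of all tested genes, and 4.55% lower, against 8.62%. The summed counts of all 43 genes made up 2.07% and 2.22% of all counts in the vector libraries and 2.01% and 1.96% in the JMJD3 libraries.

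**Figure D3:**
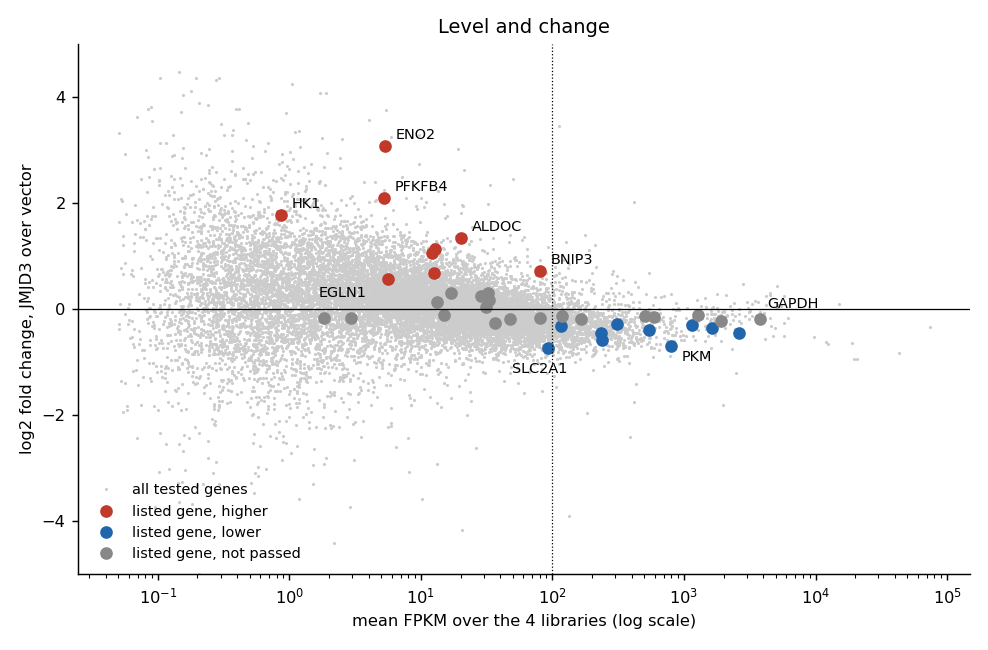
Log2 fold change (y axis) against mean FPKM over the 4 libraries (x axis, log scale) for all tested genes in grey (35 lie outside the axes) and the 38 tested genes of the list in colour. Right of the dotted line at 100 FPKM, 9 of the 16 listed genes are lower and none higher, as 53.7% of all tested genes there are lower. With library totals the median of all tested genes is higher by 0.17 and 5 of the 16 are lower.

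Within families the rarer isozyme gained share in several cases, compared as FPKM in each library with no test. An exact permutation test of 2 against 2 cannot go below p = 0.333, and a fitted model of the shares was not run. HK1 made up 0.990% and 1.81% of hexokinase FPKM in the vector libraries and 3.80% and 3.36% in the JMJD3 libraries. ALDOC made up 0.613% and 0.567% of aldolase FPKM in the vector libraries and 2.20% and 1.98% in the JMJD3 libraries. ENO2 went from 0.0716% and 0.0613% to 0.526% and 0.512% of enolase FPKM. In all of these the groups were separate, and the common isozyme still held over 95% of its family. Larger shifts of the balance occurred elsewhere. PFKFB4 went from 12.9% and 16.9% to 37.2% and 35% of PFKFB transcripts, and LDHA from 30.6% and 26.9% to 36.4% and 38.3% of LDHA and LDHB. In the PDK family the gain went instead to PDK1, already the more abundant, and PDK3 lost share. PDK1 held 77.4% and 68.8% of PDK FPKM in the vector libraries and 85.7% and 85.4% in the JMJD3 libraries. Phosphofructokinases and monocarboxylate transporters shifted by no more than 3.25 points on average, and the groups of the latter overlapped.

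**Figure D4:**
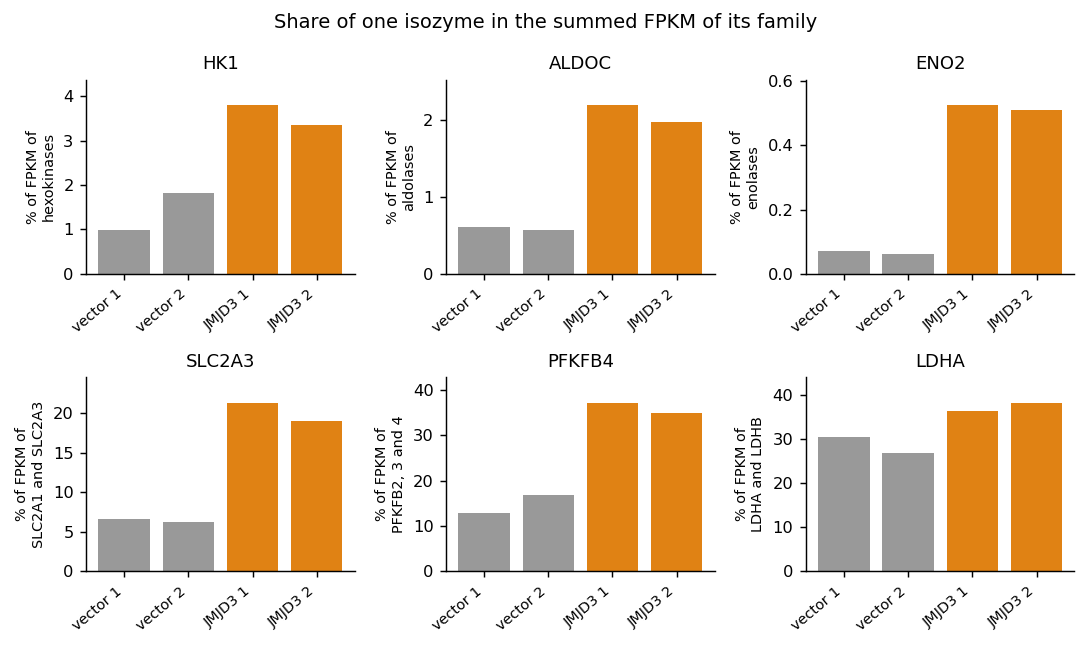
Share of 1 isozyme in the summed FPKM of its family (y axis, %) in each library, with vector libraries in grey and JMJD3 libraries in orange. The bars of HK1, ALDOC and ENO2 stay under 4%, while those of PFKFB4 reach 37.2% and those of SLC2A3 reach 21.3%.

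Other genes of the connected pathways were taken from lists. Of 12 tested genes of other glycolytic and gluconeogenic steps, 1 was higher (8.33%, against 21.6% of all tested genes) and 3 lower (25%, against 19.1%), with a median of -0.22 on the log2 scale against 0.04. The 3 lower genes, ADPGK, G6PC3 and PGM1, and the higher gene GALM changed by less than 1.5-fold and were named after their values were seen. Among 12 other genes of sugar and lactate transport 3 were higher (25%) and 1 lower (8.33%), with a median of 0.41. TXNIP, which holds glucose uptake down by removing transporters from the cell surface, had 151.5 and 142.6 CPM in the vector libraries and 330.8 and 335.5 CPM in the JMJD3 libraries. It rose in both JMJD3 libraries by 1.18 ± 0.08 on the log2 scale (adjusted p = 0.000532, edgeR). SLC2A11, a minor transporter at 0.459, 0.550, 1.19 and 1.16 CPM in vector 1, vector 2, JMJD3 1 and JMJD3 2, was higher by 1.21 ± 0.27 (adjusted p = 0.0142, edgeR), but not without either JMJD3 library or with DESeq2 or limma.

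Of 11 tested genes that bring pyruvate into the citric acid cycle, 7 were lower (63.6%, against 19.1% of all tested genes) and 1 higher (9.09%, against 21.6%), with a median of -0.40 on the log2 scale against 0.04. DLAT, PDP1 and PDPR did not pass. These counts are from the main fit alone, and lower counts depended on scaling and single libraries among the 38 genes. Of the 7, MPC2 (adjusted p = 0.0390, edgeR) and PDHX (adjusted p = 0.0329, edgeR) lay near the threshold. The 7 ranged from -0.72 for MPC1, a subunit of the mitochondrial pyruvate carrier, to -0.39 for DLD, and they included CS and the dehydrogenase subunit genes PDHA1 and PDHB. The higher gene was PDP2, whose product reactivates pyruvate dehydrogenase, at 0.50 ± 0.15 (adjusted p = 0.0367, edgeR), which did not pass without JMJD3 library 1 or JMJD3 library 2. None changed by 2-fold, and those named were chosen after their values were seen.

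Of 31 other oxygen-response genes tested, 17 were higher (54.8%, against 21.6% of all tested genes) and 4 lower (12.9%, against 19.1%), with a median of 0.39 on the log2 scale against 0.04. The count of higher genes was 7 and 8 with limma (22.6% and 25.8%, against 13.4% and 13.3% of all genes in these fits). It was 9 of 35 without a filter on low counts (25.7%, against 6.99%), 8 without JMJD3 library 1 (25.8%, against 12.8%) and 9 without JMJD3 library 2 (29%, against 12%). NDRG1, a classic hypoxia-induced gene, had 9.90 and 10.7 CPM in the vector libraries and 32.8 and 34.5 CPM in the JMJD3 libraries. STC2, a secreted glycoprotein gene, had 0.378 and 0.498 CPM in the vector libraries and 2.32 and 2.54 CPM in the JMJD3 libraries. Both had separate groups, with log2 fold changes of 1.71 ± 0.11 (adjusted p = 0.000474, edgeR) for NDRG1 and 2.46 ± 0.25 (adjusted p = 0.00157, edgeR) for STC2. VLDLR, a lipoprotein receptor gene, went the other way, from 9.85 and 8.31 CPM in the vector libraries to 4.02 and 3.05 CPM in the JMJD3 libraries (log2 fold change -1.36 ± 0.18, adjusted p = 0.00277, edgeR). ANKRD37 at 1.02 ± 0.26 (adjusted p = 0.0218, edgeR) and the collagen prolyl hydroxylase gene P4HA2 at 1.59 ± 0.47 (adjusted p = 0.0356, edgeR) were low throughout. ANKRD37 did not pass without vector library 2 or JMJD3 library 1, and P4HA2 passed, of the 4 fits that leave out a library, only without JMJD3 library 2. The classic target CA9 had at most 2 counts in any library.

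Of 11 tested genes for other HIF subunits and their regulators 2 were higher (18.2%, against 21.6% of all tested genes) and 3 lower (27.3%, against 19.1%), with a median of -0.06 on the log2 scale. All 5 changed by less than 1.5-fold. EPAS1, which encodes the alpha subunit HIF-2, was low, at 1.27 to 2.07 CPM, and did not pass. Among oxygen-response genes more were thus higher than lower, while HIF1A and EPAS1 stayed within 1.5-fold of their vector levels.

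**Figure D5:**
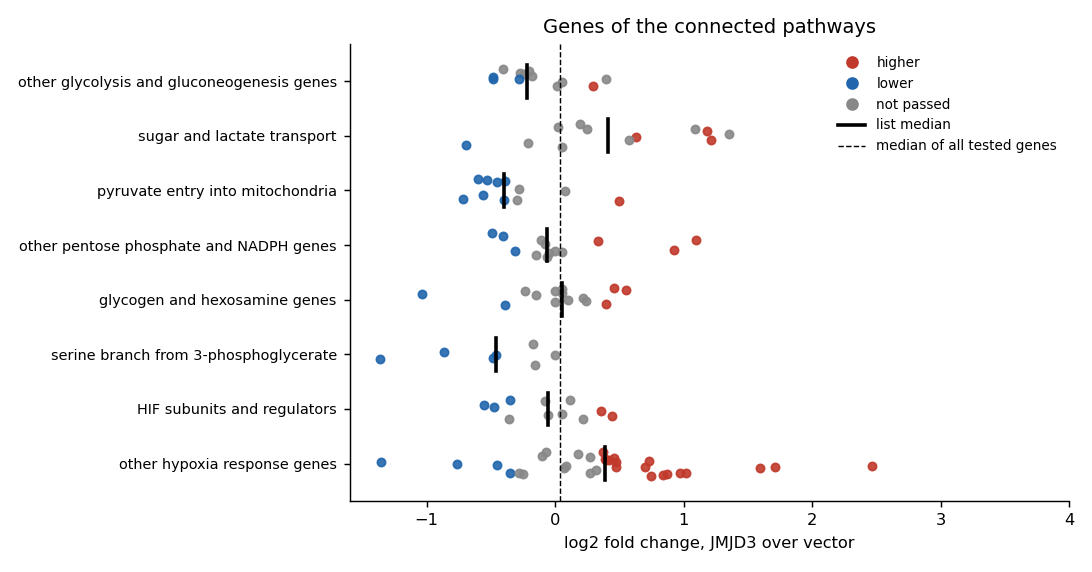
Log2 fold change (x axis, JMJD3 over vector) of each tested gene in 8 lists, with the list median as a bar and the median of all tested genes, 0.04, as a dashed line. The medians lie at -0.46 for the serine branch, -0.40 for pyruvate entry, 0.39 for other hypoxia response genes and 0.41 for sugar and lactate transport.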

How the data were processed

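The table deposited by the authors gives estimated counts, and FPKM beside them, for 4 libraries. Of the nonzero counts, 98.2% to 98.6% differ from a whole number by over 1e-06. The study's methods name STAR, hg19, HTSeq-count and DESeq2, while the submitters' processing notes name CASAVA 1.8, TopHat2 2.0.4, RSEM, edgeR and GRCh38. Counts that are not whole fit RSEM and not HTSeq-count, and the other steps are not settled by the values. Deposited columns of group means, log2 fold changes, p-values and FDR were not used. Labels give DMEM and Trizol, the methods RPMI-1640 and a column kit.

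Counts were rounded, filtered with filterByExpr (15246 of 60662 genes kept), scaled with TMM (factors 0.949, 0.937, 1.054 and 1.068) and tested with edgeR 4.0.16 in R 4.3.3 (glmQLFit, glmQLFTest, 4 libraries, no covariate), with Benjamini-Hochberg adjustment over all tested genes. The SE is the log2 fold change divided by the square root of F. The procedure was also run on simulated counts, from which no result is given or used here.

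Values per library are given for KDM6B, for members called at 1.5-fold or more, and for the most abundant member of each isozyme family. From each other list up to 5 genes called at 2-fold or more are named. The members and lists were chosen with earlier results of these data known. Alternatives were size factors or the Wald test of DESeq2 1.42.0, scaling to the upper quartile, limma 3.58.1 on FPKM in log2 with 1 or 0.1 added, at least 10 counts in every library or no filter, a replicate block, each library left out, and 1.5-fold and 2-fold limits. Library totals, a crossed block and counts summed with pseudogenes were added after the data were seen. Shared exon bases come from GENCODE in GRCh37, promoters from RefSeq in GRCh38.p14.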

Additional observations from a re-analysis of the deposited data

How the results depend on the processing

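The 10 lower members became 6 with limma on log2(FPKM + 1), 6 on log2(FPKM + 0.1), 6 with library totals, 2 at 1.5-fold and 0 at 2-fold, and 4 to 20 with 1 library left out, where the lone library of a group is assumed to vary like the other group. The 9 higher members were between 8 and 12 there, between 9 and 13 under the other fits, 8 at 1.5-fold and 6 at 2-fold. Of all tested genes, 3292 were higher and 2906 lower. The higher count was 2046 and 2032 with limma, 1893 with no filter (27095 genes tested), 1151 at 2-fold and 1890 to 4248 with 1 library left out. The lower count was 1776 with no filter, 1598 with library totals, 1205 at 1.5-fold, 430 at 2-fold and 1110 to 4212 with 1 library left out. Library totals made 74.9% of the calls higher, against 53.1%. The cause was not tested.

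With the replicate block, 9 members were higher and 8 lower, and 3267 and 2415 of all tested genes. The block took the calls of PFKL and TALDO1 away. The replicate-1 libraries deviated in opposite directions from their group means (correlation -0.252 across genes, which are not replicates). The numbers were therefore also crossed, after seeing the data. That gave 12 higher and 15 lower members, and 4335 and 3772 of all tested genes. Because this pairing was chosen from that correlation, its larger counts are no independent check of the calls.

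Values changed sign only in members that did not pass in either fit. With library totals the log2 fold change was 0.0123 for PGK1, 0.0555 for LDHA, 0.0313 for PGLS, 0.0334 for TKT and 0.0593 for ADM. With limma LDHA was at 0.0877 with 1 added and 0.0878 with 0.1. With 1 library left out the values ran from -0.41 to 0.0452 for PDK3, from -0.33 to 0.0226 for PGLS and from -0.18 to 0.25 for HIF1A. Of 585 values of the members and KDM6B over 15 settings, 514 kept their direction and side of the threshold, 31 no longer passed and 29 newly passed. Of 854 values of called genes in the other lists, 679 kept both and 175 no longer passed. The isozyme shares given by library kept their direction with each library left out, since their groups do not overlap. Those of the monocarboxylate transporters overlap, and without vector library 2 their shift turns round. Counts of pseudogenes and SLC2A14 reached at most 5.2% of a tested member's and changed no call. Genes with few counts, such as HK1, STC2 and P4HA2, are the least precise.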

Other observations

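Side branches of the pathway showed a mixed picture. In the serine branch, which leaves glycolysis at 3-phosphoglycerate and feeds the folate cycle, 4 of 7 tested genes were lower (57.1%, against 19.1% of all tested genes) and none higher, with a median of -0.46 on the log2 scale against 0.04 over all tested genes. PHGDH, its first enzyme, had 93.3 and 108.8 CPM in the vector libraries and 40.3 and 38.3 CPM in the JMJD3 libraries. Both JMJD3 libraries lay far below both vector libraries, with a log2 fold change of -1.36 ± 0.11 (adjusted p = 0.000973, edgeR). PSAT1, the next enzyme, named after its values were seen, was lower at -0.86 ± 0.09 (adjusted p = 0.00182, edgeR). The other lower genes, SHMT2 and MTHFD2, had a mean of at least 100 FPKM, where 53.7% of all tested genes were lower. MTHFD1, also above that level, did not pass. The counts of this list are from the main fit alone.

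Among 13 tested genes of the pentose phosphate pathway and NADPH supply outside the 43, 3 were higher (23.1%, against 21.6% of all tested genes) and 3 lower (23.1%, against 19.1%), with a median of -0.06. IDNK, a gluconate kinase gene, was low at 0.675, 0.865, 1.86 and 1.43 CPM in vector 1, vector 2, JMJD3 1 and JMJD3 2. Its log2 fold change was 1.09 ± 0.26 (adjusted p = 0.0185, edgeR), and it did not pass without vector library 1 or JMJD3 library 1. Among 14 tested genes of glycogen and hexosamine metabolism 3 were higher (21.4%) and 2 lower (14.3%), with a median of 0.05. PYGM, the muscle glycogen phosphorylase, had 2.00, 2.54, 1.24 and 0.972 CPM in the same order and was lower at -1.03 ± 0.24 (adjusted p = 0.0155, edgeR), but did not pass without JMJD3 library 2.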
